A study of Mus musculus with 8 samples.

Results

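Sodium and acid-base transport by the intestinal epithelium was followed through 9 mouse genes, chosen by symbol and matched through their Ensembl identifiers to the deposited gene counts of small intestinal (SI) and colonic (COL) crypts. All 9 genes were found among the 45706 genes of the table. Of these, 8 were among the 14491 genes with enough counts to be tested, and Scnn1g was not. The 9 genes were the subunit genes of the epithelial sodium channel ENaC (Scnn1a, Scnn1b and Scnn1g), the Na/H exchanger genes Slc9a2 and Slc9a3, the colonic H/K-ATPase gene Atp12a, the Na/K-ATPase beta subunit gene Atp1b1, the mineralocorticoid receptor gene Nr3c2, and Hsd11b2, whose product inactivates glucocorticoids.

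Intestinal epithelial cells take up sodium from the lumen by apical Na/H exchange, by cotransport with sugars and other solutes and, in the distal colon, through ENaC, and the Na/K-ATPase of the basolateral membrane drives all of these routes. Aldosterone acts through the mineralocorticoid receptor and is known to raise the beta and gamma subunits of ENaC in the colon. The receptor binds glucocorticoids as well as aldosterone, and the Hsd11b2 enzyme protects it by converting active glucocorticoids to forms that do not bind.

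The data are from RNA-Seq of crypts, the epithelial glands at the base of the mucosa, freshly isolated from 4 wild type C57BL/6N mice, 2 of them female and 2 male, with an age that the sources used here do not give. Each mouse gave 1 SI and 1 COL library, numbered here SI1 to SI4 and COL1 to COL4, and mice 1 and 4 were female. Neither tissue was treated, and no transgene or mutation is named for these mice. The isolation protocol, written for organoid cultures, names the proximal small intestine, has the villi scraped off with a glass slide, and keeps the colon longer and in more EDTA. These are bulk samples, in which fewer cells of a type and less RNA per cell cannot be told apart.

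Total counts ranged from 15969428 to 32908060 per library, and the share of mitochondrial transcripts ran from 4.83% to 28.3% in all libraries but COL2, which had 50.8% and also the lowest total. Levels are given as CPM, the count of a gene per 1000000 counts of a library size scaled by the trimmed mean of M-values (TMM) method. The TMM factors were 0.727 to 0.798 in SI and 1.01 to 1.45 in COL, and without them the median log2 difference (SI over COL) of all tested genes moved from -0.09 to -0.82. A list of 6 SI epithelial markers summed to 13843 to 29381 CPM in SI and 4.37 to 43.3 CPM in COL, and 6 COL epithelial markers to 4989 to 32900 CPM in COL and 15.01 to 392 CPM in SI, as the labels say. SI1 stood apart from the other SI libraries. Its 5 stem and cycling cell markers summed to 41.4 CPM, while those of SI2, SI3 and SI4 summed to between 344 and 530 CPM and those of COL to between 187 and 441 CPM. Between the tissues this list was mixed. Olfm4, with 9.74 to 254 CPM in SI and 0 to 3.50 CPM in COL, was called higher in SI. Lgr5 and Ascl2 were lower in SI than in COL in all 4 mice, and they, Mki67 and Top2a were not called. The villus enterocyte markers of SI1 had the highest sum at 18868 CPM, against 2171 to 10249 CPM in the other SI libraries. Villus enterocyte markers summed to 16.1 to 89.4 CPM in COL, and the sums of the 6 surface colonocyte markers overlapped between the tissues (5326 to 12533 CPM in SI and 1972 to 6795 CPM in COL). Most of the SI sum was Krt20 (4778 to 11118 CPM in SI and 241 to 1619 CPM in COL). The list was mixed, with Krt20 and Ceacam20 called higher in SI, Aqp8, Car4 and Guca2a called higher in COL, and Slc26a3 not called. The immune list summed to 4214 to 12997 CPM in SI, most of it Cd74, and to 20.6 to 167 CPM in COL. Its genes were mixed too, with Cd74 and Cd3e called higher in SI, Ptprc, Lyz2 and Cd68 not called, and Cd79a not tested. Ptprc was higher and Cd68 lower in SI than in COL in all 4 mice. The 6 fibroblast, 5 smooth muscle, 5 endothelial and 5 enteric neuron and glia markers summed to at most 12.7 CPM in every library. These lists moved with the tissues or with single libraries, and their part in the results for the 9 genes was not tested.

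Scnn1g and Scnn1b lie next to each other on chromosome 7 of the mouse genome (GRCm38), on the same strand, with 96562 bases and no annotated gene between them. Their promoters are shown because these adjacent subunit genes had different levels in COL crypts. Each line gives the 250 bases before the RefSeq transcription start (GRCm38.p6, plus strand), 5′ to 3′, with CpG dinucleotides in capitals, for Scnn1g from chr7:121734229-121734478 and for Scnn1b from chr7:121864788-121865037.
Scnn1g promoter: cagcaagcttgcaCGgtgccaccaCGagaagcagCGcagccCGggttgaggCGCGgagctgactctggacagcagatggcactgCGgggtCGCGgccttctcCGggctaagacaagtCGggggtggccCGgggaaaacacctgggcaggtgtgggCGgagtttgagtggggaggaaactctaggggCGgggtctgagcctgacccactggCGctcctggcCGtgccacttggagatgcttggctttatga
Scnn1b promoter: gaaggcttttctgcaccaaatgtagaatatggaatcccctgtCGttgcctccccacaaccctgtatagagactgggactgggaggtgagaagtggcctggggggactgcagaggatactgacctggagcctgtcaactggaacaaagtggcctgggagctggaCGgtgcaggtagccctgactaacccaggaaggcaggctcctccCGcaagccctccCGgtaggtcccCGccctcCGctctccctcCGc
The Scnn1g stretch holds 16 CpG dinucleotides and the Scnn1b stretch 7, against a median of 6 over 32851 mouse promoters of the same length. Promoter sequences were matched for 5 of the 9 genes, and the other 3 held more (17 in Nr3c2, 19 in Slc9a3 and 24 in Atp1b1). Over windows of 300 bases that also cover the first 50 transcribed bases, none of the 5 promoters held the steroid receptor half-site letters AGAACA on either strand, which 19.0% of all promoters hold, nor the TATA-box letters TATAAA, which 13.6% hold. The full palindrome of this half-site and its reverse complement, 3 bases apart, was found in 3 of the 32851 promoters and in none of the 5.

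Among the 9 genes, Scnn1a, Scnn1b, Atp12a and Hsd11b2 were higher in COL crypts and Atp1b1 was higher in SI crypts, while Slc9a2, Slc9a3 and Nr3c2 did not pass the threshold. The test was edgeR's quasi-likelihood test across all genes, with a Benjamini-Hochberg adjusted p-value below 0.05 taken as a call. It called 28.4% of all genes tested, 12.9% as higher in COL and 15.5% as higher in SI. With scaling by library size alone it called 33% as higher in COL and 7.69% as higher in SI. CPM ranges that did not overlap between the tissues were found for the same 5 genes, and for 33.5% of all genes tested (15.7% with COL above SI and 17.8% with SI above COL). Scnn1b, Atp12a and Hsd11b2 reached the count filter in 0, 0 and 3 SI libraries and entered the test through COL, so their calls follow in part from how genes were kept. With the mouse as a block the same genes were called, 4 higher in COL and 1 higher in SI.

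**Figure D1:**
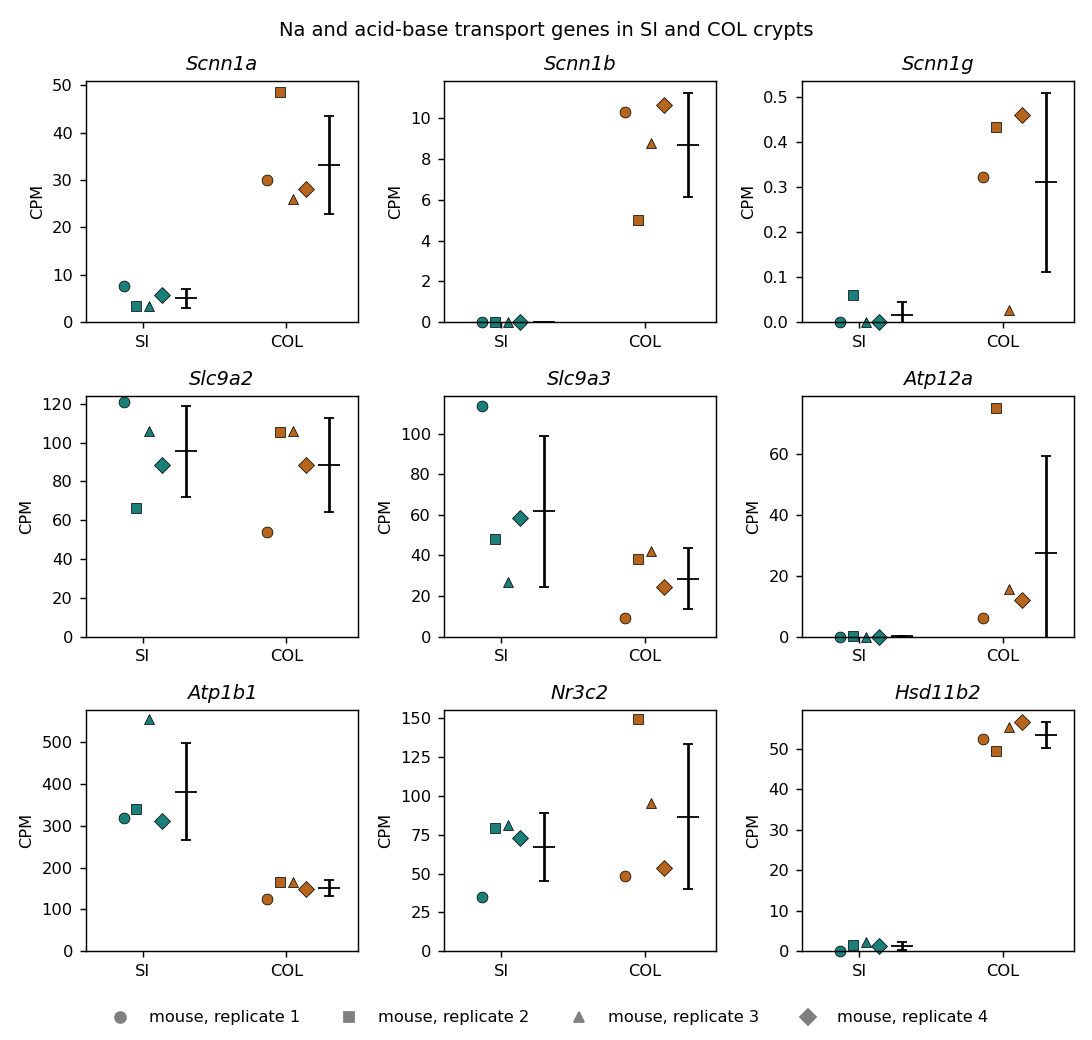
Level of each of the 9 genes in CPM (linear axes from 0, a scale per gene) in 4 SI and 4 COL libraries, with a symbol for each mouse, the mean as a horizontal bar and the SD as the vertical line, cut off at 0. Hsd11b2 lies within 49.5 to 56.5 CPM in COL, Atp12a spreads from 6.28 to 75.3 CPM there, and the points of Slc9a2, Slc9a3 and Nr3c2 overlap between the tissues.

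Scnn1a encodes the alpha subunit of ENaC, which is needed for the channel to reach the membrane. The gene (ENSMUSG00000030340, chr6:125320659-125344943, plus strand) had 7.52, 3.32, 3.50 and 5.68 CPM in SI1 to SI4 and 29.9, 48.6, 26.1 and 28.0 CPM in COL1 to COL4. Every SI library held Scnn1a transcripts, from 55 to 166 counts, and every COL library lay above all SI libraries. The log2 fold change (SI over COL) was -2.72 ± 0.36 (SE), a level 6.60-fold higher in COL, and passed edgeR's quasi-likelihood test (adjusted p = 0.000205). Leaving out each library in turn gave -2.96 to -2.46.

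Scnn1b, the gene of the beta subunit (ENSMUSG00000030873, chr7:121865038-121918514, plus strand), had 0 counts in all 4 SI libraries. In COL1 to COL4 it had 10.3, 5.04, 8.77 and 10.7 CPM, from 352, 81, 328 and 509 counts. COL2 was the lowest for Scnn1b and the highest for Scnn1a. A count of 0 allows up to 3 counts per library, which is 0.136 to 0.181 CPM in SI, so Scnn1b was at least 57.4-fold higher in COL. The gene entered the test through COL, where it is high. Its call (adjusted p = 4.66e-05, edgeR's quasi-likelihood test) is not a test of this bound.

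Scnn1g, the gene of the gamma subunit (ENSMUSG00000000216, chr7:121734479-121768475, plus strand), was close to the detection limit in both tissues and was not tested. Its counts were 0, 1, 0 and 0 in SI1 to SI4 and 11, 7, 1 and 22 in COL1 to COL4, or at most 0.461 CPM. Pooled over libraries, 41 counts in COL against 1 in SI gave a ratio of 24.3, with an exact 95% counting interval of 4.12 to 983 that covers counting error only. COL3 had 1 count, no more than SI2.

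Per length of the gene, the ENaC transcripts of COL crypts were mostly alpha. Scnn1a made up 64.2%, 85.1%, 65.4% and 61.7% of the summed length-scaled level of the ENaC genes in COL1 to COL4, and Scnn1b 34.8%, 13.8%, 34.5% and 36.9%. Scnn1g made up 0.957%, 1.05%, 0.0927% and 1.40%. In SI the share of Scnn1a was 97.5% in SI2 and 100% in the other libraries. The beta to alpha ratio, which needs no scaling between libraries, was 0.542, 0.163, 0.529 and 0.598 in COL1 to COL4, and on a log2 scale with 0.5 counts added it differed by -5.62 between SI and COL. The exact two-sided permutation test over libraries gave p = 0.0286, the smallest it can give with 4 libraries per tissue, and 0.05 after adjustment over the 7 ratios tested, which is at and not below the threshold. The SI side of this ratio rests on the added 0.5 counts, and with 2 counts added the difference was -3.66. Since Scnn1b had 0 counts in every SI library, the separation followed from these counts, and the test adds nothing to the Scnn1b result. For the gamma to alpha ratio the log2 difference was -0.06 (exact permutation p = 1), again with an SI side set by the added counts.

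ENaC needs cleavage by serine proteases for full activity, and 7 of 9 listed channel-activating proteases and inhibitors were tested. Of these, 2 were higher in SI, 1 was higher in COL and 4 were not called, with a median log2 fold change of 0.09 against -0.09 for all genes, and with scaling by library size alone 0 were higher in SI and 3 in COL. Counts of this kind stand beside 15.5% of all genes tested called higher in SI and 12.9% higher in COL, or 7.69% and 33% with scaling by library size alone. Prss8, the gene of prostasin, a membrane-anchored activator of ENaC, had 28.03 to 102 CPM in COL and 7.61 to 30.1 CPM in SI (log2 fold change -1.88 ± 0.47 SE, adjusted p = 0.0109, edgeR). The 2 genes higher in SI were Spint1, a Kunitz-type inhibitor of such proteases (1.05 ± 0.28 SE, adjusted p = 0.0164), and Furin, the proprotein convertase that cuts the channel in the secretory pathway (0.95 ± 0.29 SE, adjusted p = 0.0276). Furin was not called with the mouse as a block (adjusted p = 0.0597) or without SI1, SI4, COL1, COL3 or COL4 (up to 0.102), Spint1 was not called without SI4 or COL4 (up to 0.0528), and neither gene was called when libraries were scaled by their size alone (adjusted p = 0.308 for Spint1 and 0.581 for Furin).

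Nr3c2 encodes the mineralocorticoid receptor (ENSMUSG00000031618, chr8:76899442-77245012, plus strand). It had 34.7, 79.4, 81.4 and 72.9 CPM in SI1 to SI4 and 48.2, 149.5, 95.3 and 53.8 CPM in COL1 to COL4. The ranges overlapped, SI1 was the lowest library and COL2 the highest. A log2 fold change of -0.37 ± 0.41 (SE) did not pass the threshold (adjusted p = 0.539, edgeR), and it was 0.04 without COL2 and 0.25 without SI1 and COL2. Of its merged exons 247 bases, or 3.82%, overlap the gene Gm10649, and whether the counting used the strand is not given in the sources used here.

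Hsd11b2 (ENSMUSG00000031891, chr8:105518755-105523988, plus strand) had 52.3, 49.5, 55.4 and 56.5 CPM in COL1 to COL4, the most even level of the 9 genes, with a coefficient of variation of 5.97%. In SI1 to SI4 it had 0.0453, 1.63, 2.38 and 1.42 CPM, from 1, 27, 47 and 31 counts. SI1, the library low in stem and cycling markers, held a single count, and the other SI libraries were alike within 1.42 to 2.38 CPM. The log2 fold change was -5.29 ± 0.68 (SE), 39.2-fold higher in COL (adjusted p = 0.000178, edgeR's quasi-likelihood test), and -4.86 without SI1.

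Nr3c1 encodes the glucocorticoid receptor. It had 127.7 to 142 CPM in SI and 44.5 to 65.6 CPM in COL, a log2 fold change of 1.30 ± 0.25 (SE, adjusted p = 0.00251, edgeR), which with scaling by library size alone was 0.58 (adjusted p = 0.0923). Within each library, and per length, the Nr3c2 to Nr3c1 ratio was 0.290, 0.690, 0.757 and 0.613 in SI1 to SI4 and 1.29, 2.79, 1.73 and 1.32 in COL1 to COL4. Nr3c1 was thus the more abundant receptor transcript in every SI library and Nr3c2 in every COL library. The log2 ratio was -0.86 ± 0.63 (SD, n = 4) in SI and 0.76 ± 0.52 (SD, n = 4) in COL, a difference of -1.61 (exact permutation p = 0.0286, 0.05 after adjustment over 7 ratios), with SI below COL in all 4 mice. The permutation did not use the pairing by mouse. An exact sign-flip test of the paired ratios gave p = 0.125 (adjusted 0.219).

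**Figure D2:**
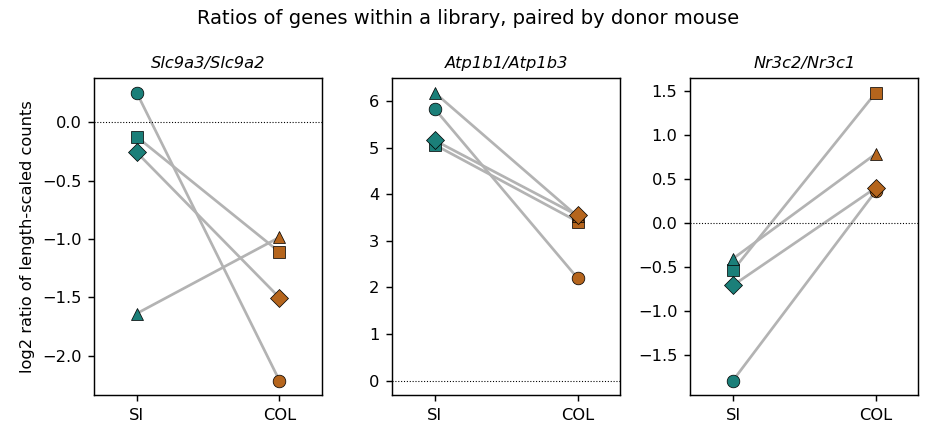
Log2 ratios of length-scaled counts (counts plus 0.5) within a library for 3 gene pairs, with a symbol for each mouse, grey lines joining the SI and COL library of a mouse, and a dotted line where both genes are equal. Nr3c2/Nr3c1 crosses 0 between SI and COL in all 4 mice, Atp1b1/Atp1b3 falls in all 4, and Slc9a3/Slc9a2 overlaps.

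Of 18 listed genes of the steroid receptor axis and of ENaC turnover, 17 were tested, and 4 were higher in SI, 5 higher in COL and 8 not called, with a median log2 fold change of 0.11. With scaling by library size alone 2 were higher in SI and 6 in COL. Higher in SI besides Nr3c1 were Tsc22d3, a glucocorticoid-induced leucine zipper protein (77.9 to 260.1 CPM in SI and 17.4 to 37.2 CPM in COL, log2 fold change 2.67 ± 0.42 SE, adjusted p = 0.000667), Usp2, a deubiquitinating enzyme (2.41 ± 0.46 SE, adjusted p = 0.00251), and Sgk1. Sgk1 encodes the steroid-induced kinase that restrains the removal of ENaC from the membrane, and its CPM values were 232, 302, 71.9 and 682 in SI1 to SI4 and 40.3, 90.6, 75.1 and 151.5 in COL1 to COL4. Its ranges overlapped, and its call (1.85 ± 0.61 SE, adjusted p = 0.0429, edgeR) was lost on leaving out any of 6 of the 8 libraries (adjusted p up to 0.152). Sgk1 was also not called with scaling by library size alone (adjusted p = 0.164, edgeR). Nedd4l, the ubiquitin ligase gene that Sgk1 acts on, was not called (0.32 ± 0.31 SE, adjusted p = 0.485).

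Higher in COL were Fkbp5, a steroid receptor co-chaperone that glucocorticoids induce, with 36.4 to 44.4 CPM in COL and 2.31 to 5.68 CPM in SI (log2 fold change -3.53 ± 0.34 SE, adjusted p = 3.00e-05, edgeR), Kcnk6, a potassium channel (-3.21 ± 0.45 SE, adjusted p = 0.000310), Ces1g, a carboxylesterase of lipid metabolism (-2.73 ± 0.69 SE, adjusted p = 0.0122), and also Wnk4 and Nedd4. Fkbp5 and Tsc22d3, both known as glucocorticoid-induced genes, thus lay on opposite sides. The Ces1g ranges overlapped (3.87 to 32.7 CPM in SI and 29.3 to 206 CPM in COL). Kcnk6 and Ces1g were counted because they were listed, and a role of theirs in steroid action or ENaC turnover was not tested.

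Slc9a2 encodes the apical exchanger NHE2 (ENSMUSG00000026062, chr1:40680574-40769273, plus strand). It had 120.9, 66.5, 106.0 and 88.5 CPM in SI1 to SI4 and 54.0, 105.3, 106.2 and 88.7 CPM in COL1 to COL4. The ranges overlapped over most of their length. It differed by a log2 fold change of 0.11 ± 0.30 (SE, adjusted p = 0.825, edgeR). Its sign was not stable: it was -0.61 (adjusted p = 0.124) with scaling by library size alone.

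Slc9a3 encodes NHE3, the main apical Na/H exchanger of absorptive cells (ENSMUSG00000036123, chr13:74121457-74169442, plus strand). It had 113.5, 48.0, 26.8 and 58.3 CPM in SI1 to SI4 and 9.18, 38.4, 42.3 and 24.7 CPM in COL1 to COL4. SI1 and COL1, from the same mouse, were the highest and lowest libraries, and SI was above COL in 3 of 4 mice. The log2 fold change of 1.11 ± 0.51 (SE) did not pass the threshold (adjusted p = 0.127, edgeR), passed it when no filter on low counts was used (adjusted p = 0.0248), and was 0.65 without SI1. Per length, the Slc9a3 to Slc9a2 ratio was 1.19, 0.917, 0.321 and 0.836 in SI and 0.216, 0.463, 0.505 and 0.353 in COL, a log2 difference of 1.01 (exact permutation p = 0.114, adjusted 0.16).

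The other Na/H exchangers and the scaffold proteins that bind NHE3 were covered by 13 genes, of which 11 were tested. Of these, 5 were higher in SI, 1 was higher in COL and 5 were not called, with a median log2 fold change of 0.74. All of the called genes were scaffolds or partners, and none of the exchanger genes among them was called, but with scaling by library size alone 5 genes were higher in SI and 3 in COL, the added ones being the exchangers Slc9a8 and Slc9a9. Slc9a3r1, which encodes the scaffold NHERF1, had 1351 to 2759 CPM in SI and 83.7 to 338 CPM in COL (log2 fold change 3.53 ± 0.56 SE, adjusted p = 0.000739, edgeR), while its relative Slc9a3r2, encoding NHERF2, had 0.0906 to 0.659 CPM in SI and 4.09 to 10.03 CPM in COL (-4.23 ± 0.61 SE, adjusted p = 0.000381). Pdzk1, another scaffold of the family, had 309.9 to 721 CPM in SI and 0 to 1.11 CPM in COL (fitted value 10.25 ± 1.14 SE, adjusted p = 7.34e-05), and Pdzd3 had a log2 fold change of 2.62 ± 0.39 (SE, adjusted p = 0.000511). Slc9a3r2 reached the count filter in 1 SI library and Pdzk1, with 0, 6, 2 and 53 counts, in 1 COL library, so they entered the test through the tissue where they are high and their fitted values rest on few counts in the other. Thus of the NHERF family genes Slc9a3r1, Pdzk1 and Pdzd3 were higher in SI and only Slc9a3r2, at a low level, was higher in COL, while the Slc9a3 ranges overlapped.

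Atp12a encodes the catalytic subunit of the colonic H/K-ATPase, which exchanges luminal potassium for protons (ENSMUSG00000022229, chr14:56365068-56388550, plus strand). It had 6.28, 75.3, 15.8 and 12.2 CPM in COL1 to COL4, from 214 to 1211 counts. SI1 to SI4 had 1, 6, 0 and 0 counts, or at most 0.363 CPM. No SI library reached the count filter, so Atp12a entered the test through COL, where it is high. COL2 was far above the other COL libraries, which gave the widest spread within COL among the 8 tested genes (coefficient of variation 117%), yet the lowest COL library was still above all SI libraries. The log2 fold change was -8.17 ± 1.17 (SE, adjusted p = 0.000354, edgeR), with a range of -10.38 to -6.89 on leaving out each library in turn, the last without COL2. In its merged exons 557 bases, or 13.9%, overlap the antisense gene Gm10873, whose reads cannot be told apart if the counting did not use the strand.

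Atp1b1 encodes the beta subunit that brings the Na/K-ATPase to the basolateral membrane (ENSMUSG00000026576, chr1:164437109-164458355, minus strand). It had 318.6, 340.7, 554.3 and 311.6 CPM in SI1 to SI4 and 123.9, 165.7, 165.0 and 148.2 CPM in COL1 to COL4. The SI values were all above the COL values, with SI3 the highest. The log2 fold change was 1.34 ± 0.31 (SE), 2.53-fold higher in SI (adjusted p = 0.00802, edgeR's quasi-likelihood test). With scaling by library size alone it was 0.61 (adjusted p = 0.160). Of its exons 575 bases, or 18.7%, overlap Nme7 on the other strand.

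Another beta subunit gene of the same pump lay on the other side. Atp1b3 had 4.30 to 7.85 CPM in SI and 9.80 to 20.9 CPM in COL (-1.12 ± 0.34 SE, adjusted p = 0.0291, edgeR, and 0.0682 with the mouse as a block). Its call was also lost without SI1, SI3, SI4 or COL1 (adjusted p up to 0.111, edgeR). Per length, Atp1b1 exceeded Atp1b3 by 57.1, 33.5, 72.8 and 35.8 times in SI and by 4.60, 10.7, 11.5 and 11.7 times in COL. The log2 ratio was 5.56 ± 0.54 (SD, n = 4) in SI and 3.17 ± 0.65 (SD, n = 4) in COL, a difference of 2.39 with the same sign in all 4 mice (exact permutation p = 0.0286, adjusted 0.05). With the pairing by mouse, the exact sign-flip test gave p = 0.125 (adjusted 0.219).

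Of 14 ATPase subunit and FXYD genes, 6 were tested, with 0 higher in SI, 3 higher in COL and 3 not called by edgeR, and the same counts with scaling by library size alone. The gastric H/K-ATPase genes Atp4a and Atp4b did not reach the filter. FXYD proteins are small regulators of the Na/K-ATPase, and both that were called were higher in COL, Fxyd3 with 6.28 to 24.3 CPM against 1.09 to 3.09 CPM in SI (log2 fold change -3.42 ± 0.51 SE, adjusted p = 0.000479, edgeR) and Fxyd4, an FXYD gene known to respond to mineralocorticoids, with 0.704 to 11.05 CPM against 0.136 to 0.725 CPM in SI (-3.74 ± 0.85 SE, adjusted p = 0.00650). The Fxyd4 ranges overlapped through COL1, it reached the count filter in 2 SI libraries, and limma-voom did not call it (adjusted p = 0.0716).

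Acid-base transport on the anion side was covered by 17 chloride/bicarbonate and Na-bicarbonate transporter genes, of which 12 were tested, 3 higher in SI, 2 higher in COL and 7 not called (median log2 fold change 0.16). With scaling by library size alone 2 were higher in SI and 5 in COL, Slc26a3 among them. Slc26a6, an apical chloride/bicarbonate exchanger, had 798 to 1578 CPM in SI and 1.53 to 3.71 CPM in COL (log2 fold change 8.75 ± 0.54 SE, adjusted p = 5.92e-06, edgeR). Slc26a3, the exchanger DRA that works beside NHE3 in neutral salt uptake, was not called (157.5 to 201.5 CPM in SI, 88.6 to 467 CPM in COL, -0.57 ± 0.43 SE, adjusted p = 0.358). Slc4a5 and Slc4a4, genes of Na-bicarbonate cotransporters, were also higher in SI. Slc4a5 had 14.4 to 30.1 CPM in SI and 1, 4, 0 and 5 counts in COL, where no library reached the count filter, so it entered the test through SI. Slc4a4 (1.35 ± 0.24 SE) was not called with scaling by library size alone (adjusted p = 0.114). Slc4a2 (-1.42 ± 0.28 SE), an anion exchanger, and Slc26a2 (-1.15 ± 0.35 SE, adjusted p = 0.0304), a sulfate transporter, were higher in COL, but Slc26a2 lost its call on leaving out any of 6 of the 8 libraries (adjusted p up to 0.101, edgeR). The 3 tested subunit genes of the V-type proton pump, of 8 listed, were higher in SI (log2 fold changes 1.02 to 1.45), but none was called with scaling by library size alone, and Atp6v1b2 was not called without SI4 or COL1 (adjusted p up to 0.0930, edgeR).

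Other routes of sodium entry were listed as 11 genes, of which 10 were found and 6 tested, 2 higher in SI, 1 higher in COL and 3 not called. Slc5a1, the sodium-glucose cotransporter, had 6143 to 9181 CPM in SI and 83.3 to 221 CPM in COL (log2 fold change 5.63 ± 0.63 SE, adjusted p = 7.34e-05, edgeR). Slc34a2, a sodium-phosphate cotransporter, spread from 7.60 to 1241 CPM in SI and was not called with the mouse as a block (adjusted p = 0.0570, against 0.00493 without it). Slc12a2, the basolateral Na-K-Cl cotransporter of secreting cells, had 172 to 271 CPM in COL and 4.94 to 69.1 CPM in SI, the lowest in SI1 (-2.34 ± 0.60 SE, adjusted p = 0.0126).

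Potassium channels set the electrical driving force for sodium uptake and anion secretion, and of 10 listed 7 were tested, with 2 higher in SI, 4 higher in COL and 1 not called (1 and 5 with scaling by library size alone). Higher in COL were Kcnma1, the BK channel of colonic potassium secretion (6.63 to 17.2 CPM in COL and 0.0906 to 1.33 CPM in SI, log2 fold change -4.53 ± 0.71 SE, adjusted p = 0.000714, edgeR), Kcnk1 (-2.44 ± 0.31 SE), Kcne3 (-2.10 ± 0.63 SE) and its partner Kcnq1. The Kcne3 call (adjusted p = 0.0280, edgeR) was lost without SI4, COL3 or COL4 (adjusted p up to 0.0612). Kcnj13 (3.79 ± 0.74 SE), with 7 to 12 counts per COL library, and Kcnk5 (1.62 ± 0.45 SE) were higher in SI, and Kcnk5 was not called without SI4 (adjusted p = 0.0519) or with scaling by library size alone (0.146). Kcnma1 reached the count filter in 1 SI library and Kcnj13 in 1 COL library, so both entered the test through the tissue where they are high. Over all pathway lists 69 of 100 genes were tested, with 21 higher in SI, 17 higher in COL and 31 not called, against the 15.5% and 12.9% of all genes tested given above. The genes of the lists were chosen with results of these data known, and nothing is read from this difference.

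**Figure D3:**
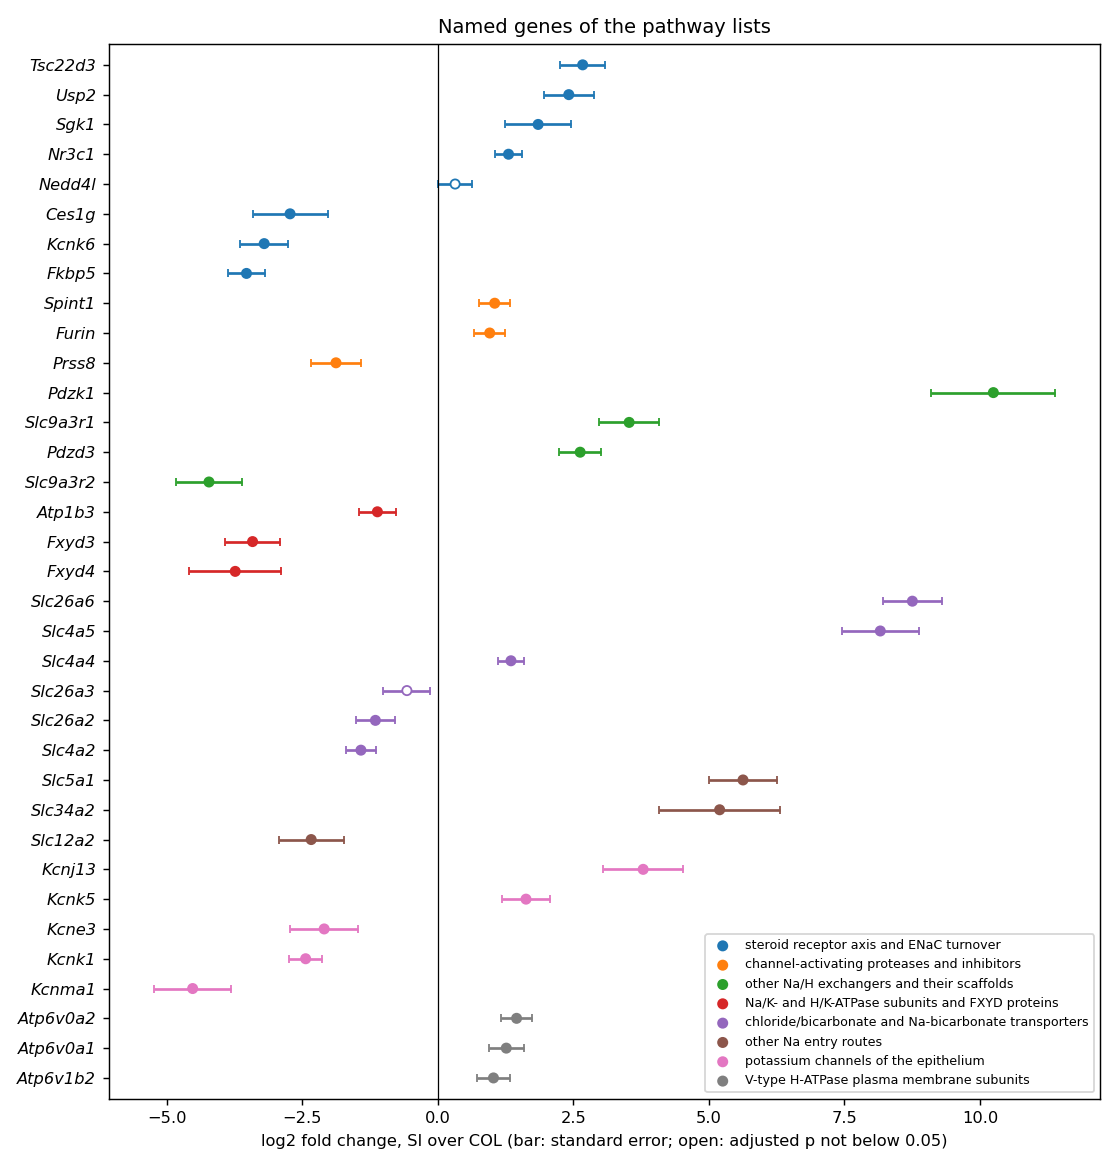
Log2 fold change (SI over COL) of the 35 named genes of the pathway lists, colored by list, with the standard error as a bar and open points for the genes whose adjusted p was not below 0.05. Pdzk1 at 10.25 and Kcnma1 at -4.53 are the ends of the range, and both open points, Nedd4l and Slc26a3, lie near 0.

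To compare levels between genes, CPM values were divided by merged exon length in kilobases (RPKM). In SI the order by mean RPKM was Atp1b1 (124 ± 37.7 SD), Slc9a2 (13.7 ± 3.35), Slc9a3 (11.2 ± 6.72), Nr3c2 (10.4 ± 3.38), Scnn1a (1.21 ± 0.481), Hsd11b2 (0.744 ± 0.530), Atp12a (0.0254 ± 0.0436), Scnn1g (0.00505 ± 0.0101) and Scnn1b (0 in all libraries), each with n = 4. The gaps below Atp1b1 and below Nr3c2 were wider than the spread, and all other neighbours in this order overlapped. In COL the order was Atp1b1 (48.9 ± 6.37 SD), Hsd11b2 (29.0 ± 1.73), Nr3c2 (13.4 ± 7.24), Slc9a2 (12.7 ± 3.49), Scnn1a (8.02 ± 2.52), Atp12a (6.82 ± 8.01), Slc9a3 (5.20 ± 2.73), Scnn1b (3.30 ± 0.979) and Scnn1g (0.104 ± 0.0665). Here Atp1b1, Hsd11b2 and Nr3c2 were apart from each other, as were Scnn1b and Scnn1g, and the genes from Nr3c2 down to Scnn1b each overlapped with the next. Atp1b1 led in both tissues, and Hsd11b2 moved from the 6th place in SI to the 2nd in COL.

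**Figure D4:**
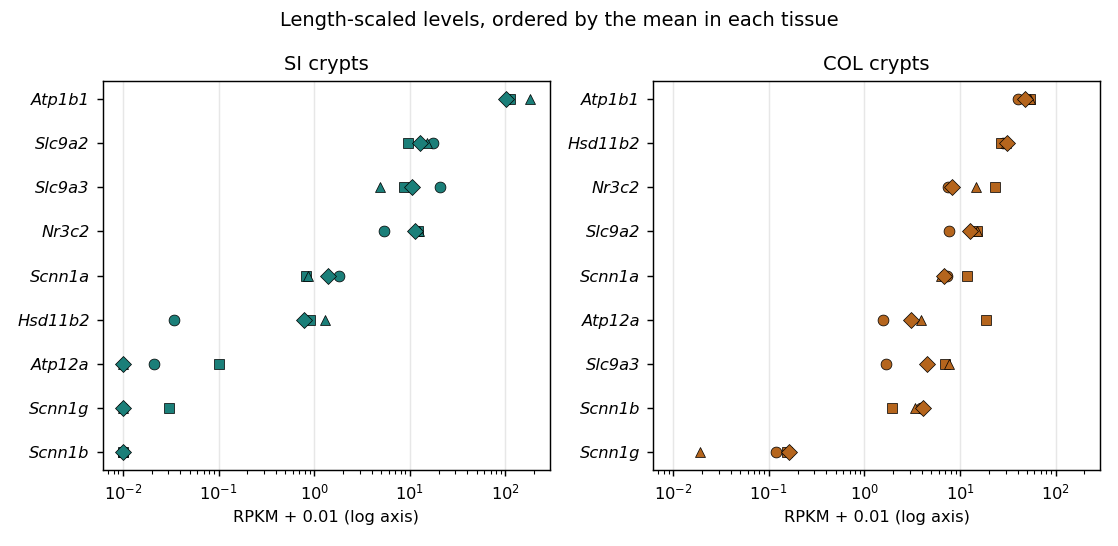
Length-scaled level (RPKM plus 0.01, log axis) of the 9 genes in 4 SI (left) and 4 COL (right) libraries, ordered by the mean, with circles, squares, triangles and diamonds for mice 1 to 4. Levels in SI fall in a step below Nr3c2, while in COL the genes from Nr3c2 to Scnn1b form a continuous range and Scnn1g lies below all others.

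Mitochondrial shares above 15% were found in SI2, SI3, COL1 and COL2, so that each tissue had 2 libraries on either side of this value. In SI the libraries with high shares were from the male mice and those with low shares from the female mice. Each COL side held both sexes, and not every mouse had its SI and COL library on the same side. Mitochondrial share and sex thus cannot be told apart in SI. The difference in mean log2 CPM (SI minus COL) of the 4 genes higher in COL had the same sign on both sides, for Scnn1a -3.46 in the libraries with high shares and -2.03 in those with low shares, for Hsd11b2 -4.64 and -7.05. The low-share value of Hsd11b2 includes SI1, which held a single count of this gene. Atp1b1 was 1.60 and 1.01 higher in SI. The CPM ranges of all these genes did not overlap between the tissues, so the sign on each side was fixed in advance. Only the sizes of these differences are given here, and an effect of the mitochondrial share was not tested by them.

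Whether the tissue difference depended on sex was tested as an interaction over 2 female and 2 male mice, and edgeR's quasi-likelihood test called 0% of genes. Of the 14491 genes, 761 (5.25%) had an unadjusted p below 0.05, close to the share that this threshold gives by chance. limma-voom (806 unadjusted) and edgeR with scaling by library size alone (926 unadjusted) also called 0 genes, and DESeq2 called 11 (1011 unadjusted), none of them among the 9. Slc9a3 had the largest interaction of the 8 tested genes, -2.45 ± 0.78 (SE, log2, male minus female, unadjusted p = 0.0103 and adjusted p = 0.909, edgeR). In the female mice 1 and 4, Slc9a3 was higher in SI than in COL, and in the male mice 2 and 3 it was 48.0 and 26.8 CPM in SI and 38.4 and 42.3 CPM in COL.

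For each tested gene the most similar profiles over the 8 libraries were sought among 14440 genes, as the smallest root mean square difference of centred log2 CPM. Scnn1a was closest to Capn2 (0.29) and Tssk4 (0.32), Scnn1b to Insl5 (0.51) and 2610528A11Rik (0.52), Atp12a to Cyp2d12 (0.43) and Gm15998 (0.60), and Hsd11b2 to Cd177 (0.60) and Gm43189 (0.62). Scnn1b had 0 counts in SI and Atp12a at most 6. Insl5, Cyp2d12 and Gm15998 had means of 0, 0.0755 and 0.0151 CPM in SI. The SI side of these profiles thus rests mostly on the prior count of 2 used for log2 CPM. Atp1b1 was closest to Usp32 and Zbtb6 (0.20 each), Slc9a2 to Ptdss2 and Dsg2 (0.18 each), Slc9a3 to Nlrp1b (0.32) and Fam160a1 (0.34), and Nr3c2 to Pisd-ps2 (0.27) and Ice2 (0.29). None of the 9 genes was among the 2 closest profiles of another. The nearest pair among them was Slc9a2 with Nr3c2 (0.65), and Hsd11b2 and Scnn1b were 1.34 apart.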

How the data were processed

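RNA-Seq libraries of SI and COL crypts from 4 mice were compared, 4 per tissue. The authors trimmed paired-end reads, aligned them to the mouse genome and counted them per gene. The submitters' processing notes name Trimmomatic 0.36, STAR 2.5.2b and the builds mm9 and mm10, and the methods give mm10. The authors deposited raw counts per Ensembl gene, without normalization, in 1 column per library. Which annotation release was used, and whether the counting used the strand, is not given in the sources used here. Of 45706 identifiers, 45143 were found in GENCODE vM21 (GRCm38), which gave symbols, coordinates and exon lengths. Promoters were taken from RefSeq (GRCm38.p6).

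From these counts, with R 4.3.3 and edgeR 4.0.16, genes were kept by filterByExpr (about 10 counts in at least 4 libraries, 15 in all) and tested by edgeR's quasi-likelihood test with TMM scaling and Benjamini-Hochberg adjustment over all 14491 genes, at 0.05. CPM and RPKM used TMM-scaled sizes. Ratios used counts plus 0.5 and exact two-sided permutation tests over 70 assignments, adjusted over 7 ratios, of which 2, and some genes of the lists, are not reported here. A ratio of Scnn1g to Scnn1b was not tested, since both were at or under 3 counts in SI. Alternatives were the mouse as a block, limma 3.58.1 (voom), DESeq2 1.42.0, library size scaling, other filters, counts plus 2, and leaving out each library. Leaving out SI1 and COL2 together was added after the data had been seen. The fits were also run on simulated data, drawn with the same dispersion for all genes and without a shift in composition between the tissues. These data differ from that setting, and nothing is read from the simulation here. The 9 genes, the pathway lists and the markers were chosen with earlier results of these data known. Named list genes were those called with the 3 largest changes in each direction of a list, plus Atp1b3, Nr3c1, Sgk1, Nedd4l, Slc9a3r1, Slc26a3 and Prss8. Wnk4, Nedd4, Kcnq1, Slc9a8 and Slc9a9, and the untested Atp4a and Atp4b, were named after their values were seen.

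The labels and methods pair the SI and COL library of a mouse. Deviations from the tissue means correlated between them at r = -0.24, 0.39, -0.08 and 0.33 for replicates 1 to 4. Libraries of a tissue are from separate mice. Low counts add counting error for Scnn1g in both tissues, for Scnn1b, Atp12a, Hsd11b2, Slc9a3r2, Fxyd4 and Kcnma1 in SI, and for Pdzk1, Slc4a5 and Kcnj13 in COL, and intervals cover counting error only.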

Additional observations from a re-analysis of the deposited data

Results flagged for a closer look

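Within each tissue, a library was set against the other 3 for every gene of the 9 and the named list genes and for each ratio, and the gap of an extreme library to its nearest neighbour was divided by the whole range. A gap above Dixon's 95% critical value was found in 8 of 98 groups checked, and chance gives about 1 in 20. COL2, the library with the lowest total and the highest mitochondrial share, gave 4 of them. Atp12a was 75.3 CPM in COL2, with 15.8 CPM in the next library, and the log2 Scnn1b/Scnn1a ratio was -2.61 there, with -0.92 next. Fxyd3 was 6.28 CPM in COL2 against 22.0 CPM next, and Kcnj13 was 0.622 CPM against 0.267 CPM next. In SI2, Scnn1g at 0.0604 CPM is 1 count and Atp12a at 0.363 CPM is 6 counts. Atp1b1 was 554.3 CPM in SI3, and the log2 Atp1b1/Atp1b3 ratio was 2.20 in COL1, against 3.42 next.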

How the results depend on the processing

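Scnn1a, Scnn1b, Atp12a and Hsd11b2 kept their direction and their call under every alternative that tested them, and Atp1b1 under all but scaling by library size alone. Scnn1b and Atp12a passed the count filter through COL, where they are high, so their kept calls add little. That scaling gave 1115 genes higher in SI and 4788 higher in COL, against 2253 and 1863, and 0 of the 9 genes higher in SI. It turned Slc9a2 to -0.61 and Nedd4l to -0.41. Without a filter on low counts 2 of the 9 were higher in SI, the added gene being Slc9a3. With at least 10 counts required in every library, 1 was higher in COL, since Scnn1b, Atp12a and Hsd11b2 were then not tested, and Slc9a2 was -0.012. Leaving out each library gave 1707 to 2393 genes higher in SI and 1442 to 2187 higher in COL, and 4 to 5 of the 9 higher in COL, the fifth being Scnn1g, without SI2 or without COL3. It turned the sign of Slc9a2 without SI1 (-0.0066) and without COL1 (-0.061), within a range of -0.06 to 0.27, and of Nr3c2 without COL2 (0.044), within -0.56 to 0.04. Without SI1 and COL2, Nr3c2 was 0.25. The log2 Scnn1g/Scnn1a difference was 1.28 with counts plus 2 and -0.81 to 0.34 on leaving out each library. DESeq2 called 11 genes for the interaction with sex. Apart from the changes of scaling and filter, the cause was not tested.

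With the mouse as a replicate block, edgeR called 2221 genes higher in SI and 1851 higher in COL, and all 8 tested genes kept the result they had without it, while Furin, Atp1b3 and Slc34a2 lost their calls. An exact sign-flip test of the paired ratios cannot go below 0.125. Low counts limit Scnn1g in both tissues and several genes in 1 tissue, and there were 4 mice.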
